A study of Mus musculus with 10 samples.

Results

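The genes of cholesterol and fatty acid synthesis form a chain of enzymes with its own regulators and carriers. The 34 genes described here were listed by name from the steps of that pathway, and all 34 were found among the 20405 genes measured on the arrays. They comprise 7 genes of the mevalonate steps, 11 of the squalene and sterol steps, 5 that control the pathway, 3 that move sterol, and 8 that make, lengthen or desaturate fatty acids. They were chosen by name with earlier results of these data known. Some other enzymes of the pathway were not analysed here.

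The arrays held RNA from cortices of 10 mouse embryos taken at E10.5, when the cortical wall is mostly dividing progenitors. The mutant group was 5 embryos with 1 copy of the Mos2 allele of Magoh (Magoh-Mos2 heterozygous) on a C57BL/6 background. The other group was 5 wild-type C57BL/6 embryos. The Magoh protein belongs to the exon junction complex, which marks spliced mRNA near each exon boundary. Each array held RNA of the cortex pair of 1 embryo, and the allele is carried by every cell of the embryo, blood and meninges included. Values are log2 RMA levels (background-corrected, normalised between arrays and summarised over the probes of a gene), and differences are Magoh mutant minus wild type. The arrays have no read depth, and their number limits the precision.

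Animal cells build cholesterol from acetyl-CoA through mevalonate and squalene. The pathway is run largely by the SREBP transcription factors, which are held in the endoplasmic reticulum by INSIG proteins when sterol is plentiful. When sterol is short, the escort protein SCAP carries them to the Golgi, where they are cut free to switch on the genes of the pathway, Insig1 among them. Fatty acid synthesis shares its acetyl-CoA supply and part of this control. Growing brain makes much of its own cholesterol, which dividing cells need for membrane.

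Magoh itself checked the labels. Its level was 10.31, 10.30, 10.37, 10.17 and 9.92 in the mutant arrays 1 to 5, against 11.07, 11.08, 11.14, 11.06 and 10.90 in the wild-type arrays. All mutant arrays lay below all wild-type arrays. The cortical regulator Lhx2 averaged 9.94 in mutants and 10.17 in wild type, so a marker of the dissected tissue was measured in both genotypes. Emx2, another such regulator, averaged 8.47 in mutants and 8.63 in wild type. Its mutant mean lay under 8.57, the negative-control level given below. Mutant array 1 stood apart from the rest, with the lowest median correlation to arrays of its own genotype (0.9898, against 0.9934 to 0.9952 for the other mutant arrays and 0.9964 to 0.997 for the wild-type arrays). Many results that rest on it are also given without it.

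No member passed the test, and the enzymes of sterol synthesis lay lower in mutant cortex with few exceptions among the arrays. In limma with Benjamini-Hochberg adjustment over all genes, 0 of the 34 members had an adjusted p under 0.05, where 0.573% of all genes did (0.314% lower and 0.26% higher in mutants). At an unadjusted p under 0.05, 13 of 34 members lay lower and 0 lay higher in mutants, against 4.68% lower and 4.57% higher over all genes. The difference was negative for 29 of 34 members, where 49.0% of all genes had a negative difference. For 7 members all 5 mutant arrays lay below all 5 wild-type arrays, a pattern that 1.39% of all genes showed, and for 0 did they lie above, where 1.43% of all genes did. The median difference of the members was -0.10, against 0.00 over all genes. Without mutant array 1 there were 12 lower at an unadjusted p under 0.05 (5.51% of all genes) and 31 negative (48.7% of all genes), with a median of -0.13. In tissue RNA, fewer cells of a type and less RNA per cell cannot be told apart.

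The mean level over both genotypes was above 8.57 for 28 members, the level below which 95% of the negative-control probe sets lay on average. Pmvk, Ebp, Hsd17b7, Insig2, Npc1 and Abca1 lay below it, where background can hide or shrink a difference. In another 3 members (Lss, Tm7sf2 and Stard4) the mutant mean alone lay below it, which limits the precision of their differences in the same way.

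Promoter windows are shown for the 5 members with an unadjusted p under 0.01, since these carry the differences described next. Each runs from 250 bases before to 50 bases after the annotated start (RefSeq, GRCm38.p6), 5′ to 3′ on the strand of the gene. Insig1 lies at chr5:28071162-28071461 (plus strand), Hmgcs1 at chr13:119690101-119690400 (plus strand), Lss at chr10:76531355-76531654 (plus strand), Cyp51 at chr5:4104648-4104947 (minus strand) and Tm7sf2 at chr19:6067801-6068100 (minus strand). Capitals mark the letters CCAAT on either strand (read as ATTGG on the other), which the factor NF-Y binds and which often lie near SREBP sites, and the SREBP-type letters TCACNCCAC.
Insig1: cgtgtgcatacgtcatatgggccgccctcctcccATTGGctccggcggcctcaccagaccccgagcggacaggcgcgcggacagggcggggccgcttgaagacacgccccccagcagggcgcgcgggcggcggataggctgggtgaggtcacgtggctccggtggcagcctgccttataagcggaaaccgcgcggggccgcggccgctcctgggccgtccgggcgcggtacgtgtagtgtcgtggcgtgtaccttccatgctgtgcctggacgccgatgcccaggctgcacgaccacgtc
Hmgcs1: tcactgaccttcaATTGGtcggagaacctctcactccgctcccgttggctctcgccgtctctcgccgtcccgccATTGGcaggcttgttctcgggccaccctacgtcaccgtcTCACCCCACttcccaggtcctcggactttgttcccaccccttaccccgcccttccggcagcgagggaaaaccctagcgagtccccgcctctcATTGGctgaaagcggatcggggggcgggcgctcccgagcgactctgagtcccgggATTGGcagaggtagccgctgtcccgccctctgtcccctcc
Lss: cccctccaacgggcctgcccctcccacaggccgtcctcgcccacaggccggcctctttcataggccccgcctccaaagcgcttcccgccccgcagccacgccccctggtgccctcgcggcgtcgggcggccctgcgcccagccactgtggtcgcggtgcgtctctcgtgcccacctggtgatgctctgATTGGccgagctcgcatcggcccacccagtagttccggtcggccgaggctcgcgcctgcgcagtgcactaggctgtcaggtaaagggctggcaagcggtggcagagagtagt
Cyp51: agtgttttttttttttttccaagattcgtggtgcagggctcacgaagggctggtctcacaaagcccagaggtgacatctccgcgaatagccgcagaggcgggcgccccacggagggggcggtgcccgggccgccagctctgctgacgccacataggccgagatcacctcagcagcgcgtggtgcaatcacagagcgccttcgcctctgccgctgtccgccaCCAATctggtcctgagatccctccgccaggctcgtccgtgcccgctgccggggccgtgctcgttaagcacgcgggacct
Tm7sf2: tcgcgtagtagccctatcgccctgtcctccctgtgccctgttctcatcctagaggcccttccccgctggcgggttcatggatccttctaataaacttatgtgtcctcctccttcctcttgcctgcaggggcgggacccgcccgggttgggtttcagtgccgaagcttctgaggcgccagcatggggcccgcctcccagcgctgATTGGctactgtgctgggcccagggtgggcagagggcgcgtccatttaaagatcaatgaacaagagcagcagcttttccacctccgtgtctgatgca

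Every one of these windows held CCAAT letters. Hmgcs1 had 4 matches, the nearest ones at -45 and 11 from the start site, and was the only member whose window held the SREBP-type letters, at -137. In Insig1 the match began at -216, in Lss at -62, in Cyp51 at -29 and in Tm7sf2 at -47. No match overlapped one of the other kind. A promoter window was found for 26 of the 34 members, and 20 of these (76.9%) had CCAAT letters in at least 1 window, against 41.1% of 27025 genes with a window and 29 of 47 (61.7%) of the other pathway genes listed further on. Among sterol synthesis enzymes the count was 14 of 15, and among the fatty acid genes 2 of 5. The SREBP-type letters were found in 1 of 26 members and in 1.4% of all genes. The E-box letters CACGTG were in 6 of 26 members, against 8.1% of all genes. These are matches of letters and not sites shown to be bound.

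**Figure D1:**
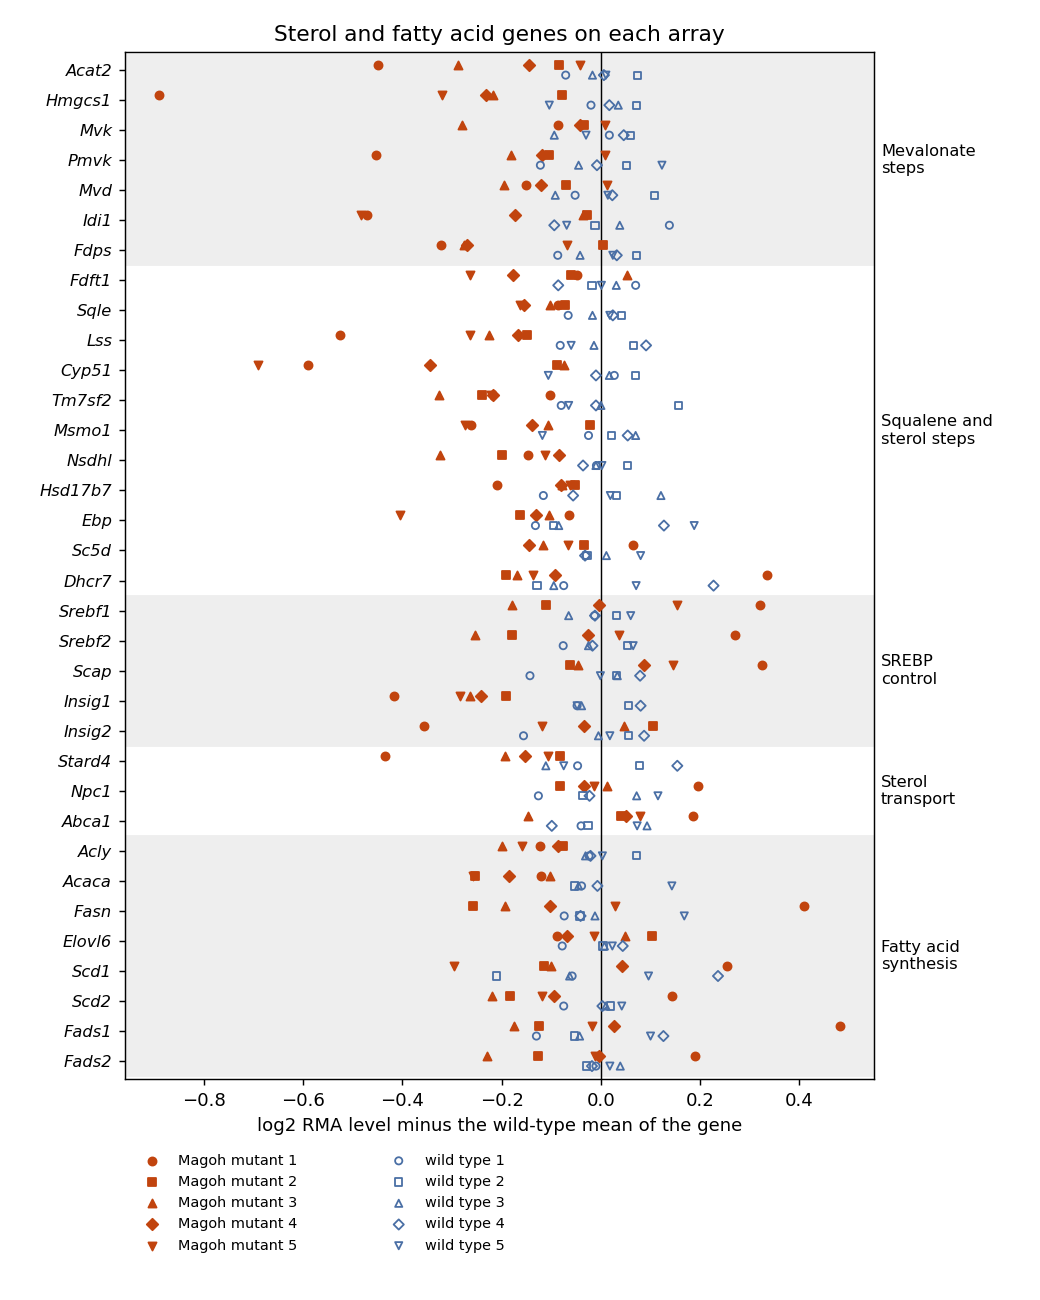
Level of each of the 34 genes on each array minus the wild-type mean of that gene (log2 scale, x axis), with Magoh mutant arrays as filled red marks above wild-type arrays as open blue marks in each row, and the shape giving the replicate number. Mutant marks lie mostly left of 0 in the mevalonate, squalene and sterol rows, while mutant array 1 (filled circles) lies far right for Fasn, Fads1, Dhcr7, Srebf1 and Srebf2.

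The mevalonate steps join acetyl-CoA into farnesyl pyrophosphate. All 7 genes measured there had a negative difference, and their median was -0.19 (-0.14 without mutant array 1). At an unadjusted p under 0.05, 4 of them lay lower, against 4.68% of all genes. Without mutant array 1 only 2 did, against 5.51% of all genes. None passed the adjusted test.

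Hmgcs1, the synthase that makes HMG-CoA, had levels of 10.43, 11.25, 11.11, 11.09 and 11.01 in mutants, against 11.31, 11.40, 11.36, 11.34 and 11.22 in wild type. Only mutant array 2 reached into the wild-type range, and mutant array 1 lay far below every other array. The difference was -0.35 (SE 0.12), or 21.4% lower (limma adjusted p = 0.282). Without mutant array 1 it was -0.21 (limma adjusted p = 0.171), so 1 array accounts for much of the size.

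Idi1, the isomerase of isopentenyl pyrophosphate, had levels of 9.99, 10.43, 10.42, 10.29 and 9.97 in mutants, against 10.60, 10.45, 10.497, 10.37 and 10.39 in wild type. Mutant arrays 1 and 5 were low, mutant array 4 lay just below the wild-type range, and the other two lay within it. Its difference was -0.24 (SE 0.09, limma adjusted p = 0.416), and a second probe set gave -0.25. Both probe sets carry the Idi1 annotation, but whether the one used, which had the higher mean, lies at the Idi1 locus was not tested. The difference shrank to -0.08 when mutant arrays 1 and 5 were both left out.

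Acat2, the cytosolic thiolase that joins acetyl-CoA units, averaged 10.48 ± 0.17 in mutants and 10.68 ± 0.05 in wild type (SD, n = 5 each). Mutant array 5, at 10.64, lay above the lowest wild-type array, at 10.61, and the other mutant arrays lay below it. The difference was -0.20 (SE 0.08, limma adjusted p = 0.383), and -0.14 without mutant array 1. Fdps, which builds farnesyl pyrophosphate, averaged 9.70 ± 0.15 in mutants and 9.89 ± 0.06 in wild type, with 3 mutant arrays below the lowest wild-type array. Its difference was -0.19 (SE 0.07, limma adjusted p = 0.416), and -0.15 without mutant array 1.

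The kinases and the decarboxylase between them differed less. Mvk, mevalonate kinase, differed by -0.09, with a 95% interval from -0.23 to 0.06, and by -0.04 without mutant array 3. Mvd, the decarboxylase, differed by -0.10, from -0.24 to 0.03. Pmvk, the second kinase, differed by -0.17, from -0.35 to 0.01, and by -0.10 without mutant array 1. These intervals reach 0 and do not show that the levels were equal.

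Squalene is made and closed into lanosterol, which is then trimmed to cholesterol. All 11 genes measured had a negative difference, and their median was -0.16 (-0.15 without mutant array 1). At an unadjusted p under 0.05, 5 of them lay lower, against 4.68% of all genes. Without mutant array 1 there were 6, against 5.51% of all genes. In 4 of the 11 (Sqle, Lss, Tm7sf2 and Nsdhl) all mutant arrays lay below all wild-type arrays, where 1.39% of all genes did. Over the 18 enzymes of sterol synthesis and the 5 mutant arrays, 83 of 90 values lay below the wild-type mean of their gene, where 49.0% of such values over all genes did.

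Lss, lanosterol synthase, which closes the sterol rings, had levels of 8.30, 8.68, 8.60, 8.66 and 8.56 in mutants, against 8.74, 8.89, 8.81, 8.92 and 8.77 in wild type. The groups did not overlap, with mutant array 1 lowest. The difference was -0.27 (SE 0.08), or 16.8% lower (limma adjusted p = 0.176). It was -0.20 without mutant array 1. The mutant mean, 8.56, lay just under the 8.57 of the negative controls.

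Cyp51, the demethylase of lanosterol, had levels of 8.90, 9.40, 9.42, 9.15 and 8.80 in mutants, against 9.52, 9.56, 9.51, 9.48 and 9.38 in wild type. Mutant arrays 1, 4 and 5 lay below every wild-type array and mutant arrays 2 and 3 just above the lowest of them. The difference was -0.36 (SE 0.11), the most negative of the 34, or 22.0% lower (limma adjusted p = 0.20). Without mutant arrays 1 and 5 together it was -0.17.

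Tm7sf2, a sterol reductase acting after Cyp51, had levels of 8.59, 8.45, 8.36, 8.47 and 8.47 in mutants, against 8.61, 8.85, 8.69, 8.68 and 8.63 in wild type. The groups did not overlap, though mutant array 1 came close to the lowest wild-type array. The difference was -0.22 (SE 0.07), or 14.3% lower (limma adjusted p = 0.199), and -0.25 without mutant array 1 (limma adjusted p = 0.0856). The mutant mean, 8.47, lay under the negative-control level.

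Nsdhl, a sterol dehydrogenase encoded on the X chromosome, had levels of 9.32, 9.27, 9.15, 9.39 and 9.36 in mutants, against 9.46, 9.52, 9.46, 9.43 and 9.47 in wild type. The groups did not overlap. The difference was -0.17 (SE 0.06, limma adjusted p = 0.333, and 0.338 with sex as a covariate, each genotype holding 2 embryos with low Y-linked levels). Sqle, the epoxidase that acts on squalene, had levels of 10.16, 10.17, 10.14, 10.09 and 10.08 in mutants, against 10.18, 10.28, 10.23, 10.27 and 10.26 in wild type. These groups also did not overlap, by a narrow gap, with a difference of -0.12 (SE 0.06, limma adjusted p = 0.56).

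Msmo1, the methylsterol oxidase that works beside Nsdhl, averaged 11.31 ± 0.11 in mutants and 11.47 ± 0.08 in wild type (SD, n = 5 each), a difference of -0.16 (SE 0.07, limma adjusted p = 0.468). Mutant arrays 1 and 5 were the lowest, and without both it was -0.09. Ebp, the sterol isomerase, also on the X chromosome, differed by -0.17 (SE 0.08, limma adjusted p = 0.548). Fdft1, squalene synthase, differed by -0.10 (SE 0.07), or -0.06 without mutant array 5, and its other probe sets gave -0.08 and -0.22. Hsd17b7, a sterol ketoreductase, differed by -0.10 (SE 0.06) at levels near the negative controls, and by -0.07 without mutant array 1. Sc5d, the desaturase near the end of the path, differed by -0.06, with a 95% interval from -0.19 to 0.07, and by -0.09 to -0.04 with 1 array left out.

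Dhcr7, the reductase of the last step, went apart from its neighbours on 1 array. Its levels were 9.56, 9.04, 9.06, 9.14 and 9.09 in mutants, against 9.15, 9.10, 9.13, 9.46 and 9.30 in wild type. Mutant array 1 was the highest of the 10 and mutant array 2 the lowest. The difference was -0.05 (95% interval -0.26 to 0.16), and -0.15 without mutant array 1 (limma adjusted p = 0.491).

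**Figure D2:**
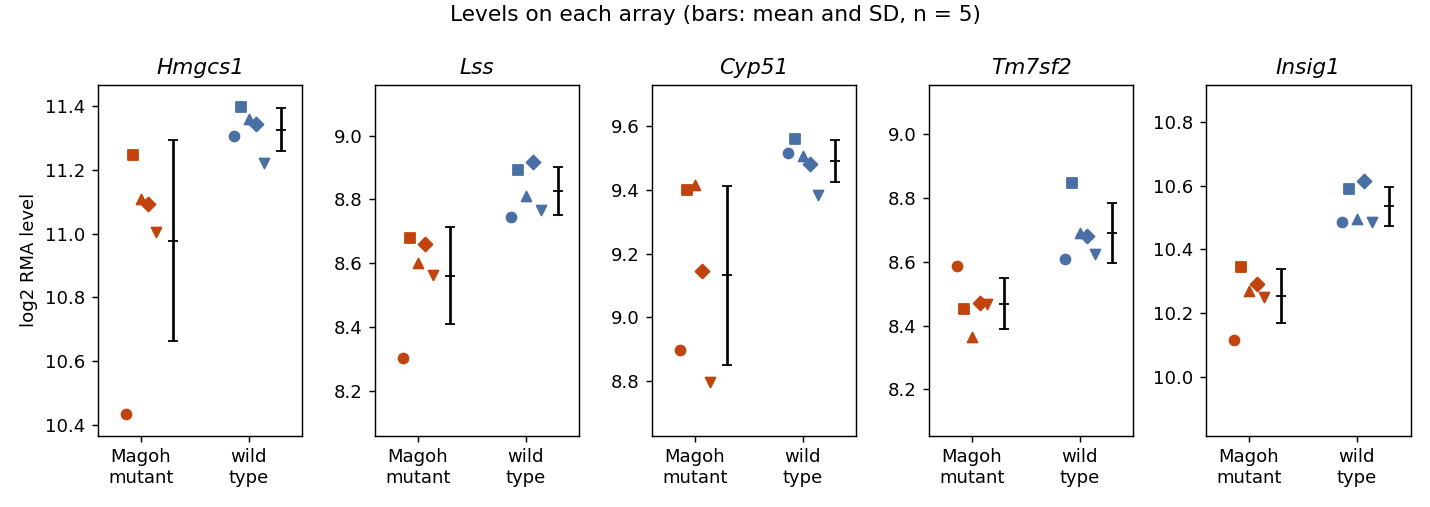
Log2 RMA level of the 5 genes with an unadjusted p under 0.01 on each array, with Magoh mutant arrays in red left of wild-type arrays in blue; bars give the mean and SD of 5 arrays, and each panel spans the same height. Insig1, Lss and Tm7sf2 do not overlap between genotypes, while Hmgcs1 and Cyp51 overlap and have low mutant arrays 1 (both) and 5 (Cyp51).

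Of the 5 control genes, 1 lay lower at an unadjusted p under 0.05, where 4.68% of all genes did. Insig1, which retains SCAP and the SREBPs in the endoplasmic reticulum and is itself an SREBP target, had levels of 10.12, 10.34, 10.27, 10.29 and 10.25 in mutants, against 10.49, 10.59, 10.496, 10.61 and 10.49 in wild type. The groups did not overlap. The difference was -0.28 (SE 0.06), or 17.7% lower, with a 95% interval from -0.41 to -0.15. Its limma adjusted p was 0.0615, the smallest of the 34 and above the threshold. The adjusted p was under 0.05 with quantile normalization (0.0266), with only genes above the overall median level (0.0365) or above the negative controls (0.0362), with an intensity trend (0.0437) and with array weights (0.0366), and with 1 array left out it lay between 0.0669 and 0.199.

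Its relative Insig2, with the same role and less dependent on SREBP, had levels of 7.77, 8.23, 8.18, 8.10 and 8.01 in mutants, against 7.97, 8.19, 8.12, 8.22 and 8.15 in wild type. Mutant array 1 lay below every wild-type array, mutant array 2 just above every one, and the other mutant arrays within their range. Both genotypes lay below 8.57. The difference was -0.07 (95% interval -0.25 to 0.11), and 0.00 without mutant array 1. The difference between the paralogs was not tested.

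The transcription factor genes had differences near 0, and the interval of their escort reached 0. Srebf2, whose protein drives mainly sterol genes, had levels of 10.71, 10.26, 10.19, 10.41 and 10.48 in mutants, against 10.36, 10.49, 10.42, 10.42 and 10.51 in wild type. Mutant array 1 was the highest and mutant array 3 the lowest of the 10. Its difference was -0.03 (95% interval -0.21 to 0.15), and -0.11 without mutant array 1.

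Srebf1, whose protein drives mainly fatty acid genes, had levels of 9.12, 8.69, 8.62, 8.80 and 8.96 in mutants, against 8.79, 8.84, 8.74, 8.79 and 8.86 in wild type. The mutant arrays lay on both sides of the wild-type range. The difference was 0.04 (95% interval -0.15 to 0.22), and its sign turned without mutant array 1 (-0.04). Scap, the escort, differed by 0.09 (95% interval -0.08 to 0.26) and by 0.03 without that array. Its second probe set, at a mean level of 6.38 and so below 8.57, gave 0.21, and the mean over both gave 0.15. The arrays measure the mRNA of these regulators and not the amount of cleaved SREBP.

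The 3 carriers of sterol differed in sign. Stard4, which shuttles sterol between membranes and is an SREBP target, had levels of 8.26, 8.61, 8.50, 8.54 and 8.59 in mutants, against 8.65, 8.77, 8.58, 8.85 and 8.62 in wild type. Mutant array 1 was lowest, and 2 mutant arrays lay within the wild-type range. Its difference was -0.19 (SE 0.08, limma adjusted p = 0.433), and -0.13 without mutant array 1. The mutant mean, 8.50, lay under the negative-control level. Npc1, which exports cholesterol from late endosomes, differed by 0.02 (95% interval -0.13 to 0.16), and by -0.03 without mutant array 1. Abca1, the exporter of cholesterol that is switched on by the sterol sensor LXR, differed by 0.04 (95% interval -0.11 to 0.19), and by 0.01 without mutant array 1. Both lay below 8.57 in both genotypes.

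**Figure D3:**
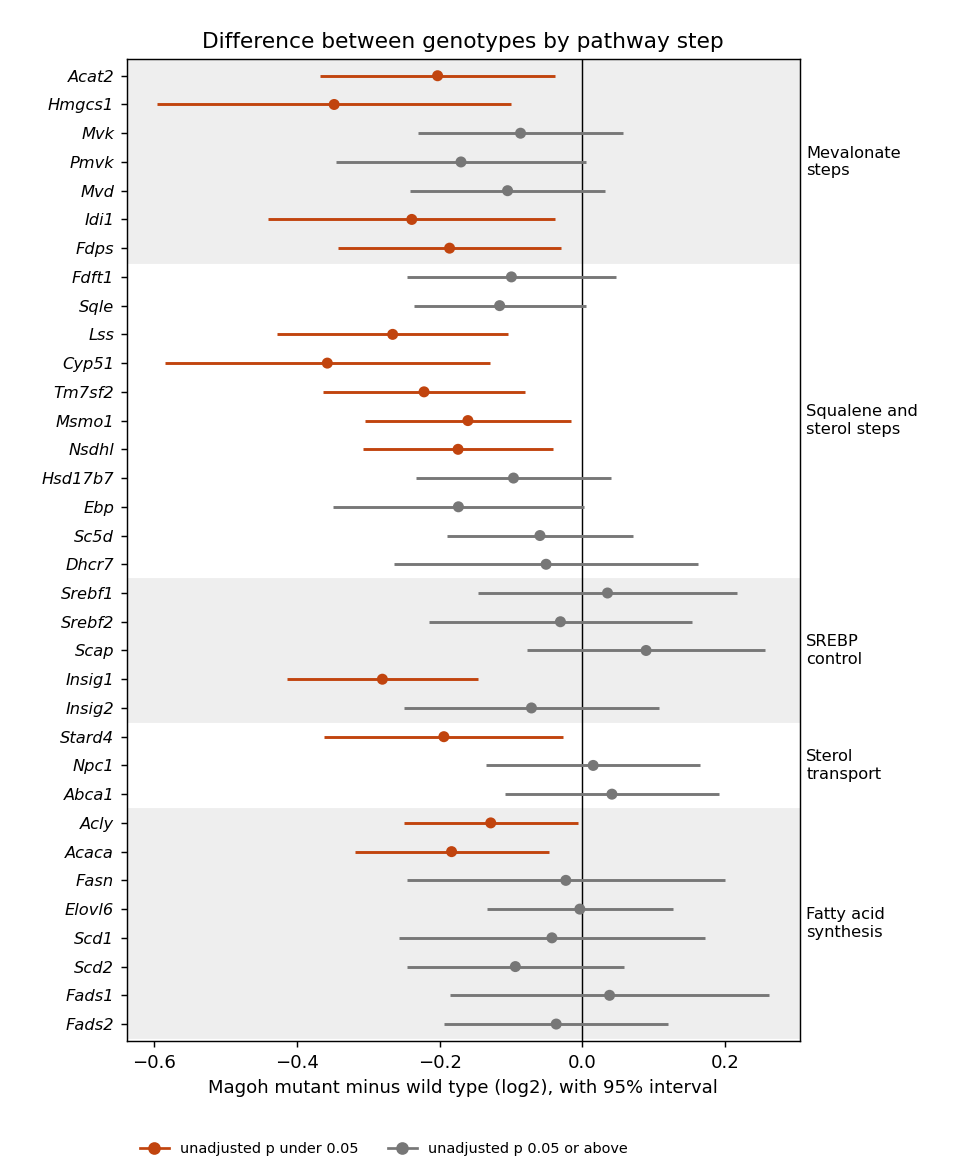
Difference between Magoh mutant and wild type (log2, x axis) for the 34 genes by step, with the 95% interval of the limma fit; red marks an unadjusted p under 0.05. All 18 enzymes of sterol synthesis lie left of 0, while of the fatty acid genes only Acly and Acaca are marked red.

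Of the fatty acid genes, the 2 that supply building blocks lay lower without overlap, while the synthase, elongase and desaturases had intervals that reach 0. Of 8 members 7 had a negative difference, and the median of the 8 was -0.04. At an unadjusted p under 0.05, 2 lay lower, against 4.68% of all genes. Without mutant array 1 the median was -0.12, with 3 at that limit (5.51% of all genes). The order of the genes then changed, with Scd2 at -0.15 and Fasn at -0.13 beside Acly at -0.13 and Acaca at -0.20.

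Acly, which makes cytosolic acetyl-CoA from citrate for sterols and fatty acids alike, had levels of 10.60, 10.64, 10.52, 10.63 and 10.56 in mutants, against 10.70, 10.79, 10.69, 10.70 and 10.72 in wild type. The difference was -0.13 (SE 0.06, limma adjusted p = 0.51). Acaca, which makes malonyl-CoA, had levels of 9.57, 9.44, 9.59, 9.50 and 9.43 in mutants, against 9.65, 9.64, 9.65, 9.68 and 9.83 in wild type. In both genes every mutant array lay below every wild-type array, a pattern that 1.39% of all genes showed. The difference of Acaca was -0.18 (SE 0.06, limma adjusted p = 0.312), and a second probe set gave -0.20. Both probe sets carry the Acaca annotation, but whether the one used lies at the Acaca locus was not tested.

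Fasn, the fatty acid synthase, had levels of 11.11, 10.44, 10.51, 10.60 and 10.73 in mutants, against 10.63, 10.66, 10.69, 10.66 and 10.87 in wild type. Mutant array 1 was the highest of the 10 and mutant arrays 2, 3 and 4 were below every wild-type array. The difference was -0.02 (95% interval -0.25 to 0.20), and -0.13 without mutant array 1 (limma adjusted p = 0.546). Its sign also turned when mutant array 2 or 3 or wild-type array 5 was left out, so no direction can be given.

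The desaturases Fads1 and Fads2, which make long polyunsaturated fatty acids, showed the same array apart. Fads1 had levels of 11.34, 10.74, 10.68, 10.89 and 10.84 in mutants, against 10.73, 10.81, 10.82, 10.99 and 10.96 in wild type. Its difference was 0.04 (95% interval -0.19 to 0.26), and -0.07 without mutant array 1. Fads2 differed by -0.04 (95% interval -0.19 to 0.12), and by -0.09 without that array.

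Scd2, the stearoyl-CoA desaturase found mainly in the brain in mice, had levels of 12.37, 12.04, 12.004, 12.13 and 12.10 in mutants, against 12.15, 12.24, 12.23, 12.23 and 12.26 in wild type. The 4 mutant arrays other than the first lay below every wild-type array. Its difference was -0.09 (SE 0.07, limma adjusted p = 0.772), and -0.15 without mutant array 1 (limma adjusted p = 0.29). A second probe set, at a mean level of 5.20 and so near the medians of the negative controls, gave 0.07, and the mean over both gave -0.01. Scd1, its relative of liver and fat, differed by -0.04 (95% interval -0.26 to 0.17), and by -0.12 without mutant array 1. Elovl6, which lengthens the product of Fasn, differed by 0.00 (95% interval -0.13 to 0.13), and by 0.02 without that array.

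Mutant array 1 pulled the members in opposite directions. It was the highest of the 10 arrays for 11 members (Dhcr7, Srebf1, Srebf2, Scap, Npc1, Abca1, Fasn, Scd1, Scd2, Fads1 and Fads2) and the lowest for 10 (Acat2, Hmgcs1, Pmvk, Fdps, Lss, Hsd17b7, Insig1, Insig2, Stard4 and Elovl6). On that array the median of the mevalonate genes was -0.45 from the wild-type mean, that of the squalene and sterol genes -0.10, and that of the fatty acid genes 0.17. On the other 4 mutant arrays the fatty acid median lay between -0.18 and -0.07, against -0.07 to 0.07 on the wild-type arrays, meeting at the edge. The squalene and sterol median was -0.22 to -0.09 on all 5 mutant arrays, against -0.07 to 0.03 on the wild-type arrays, without overlap.

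**Figure D4:**
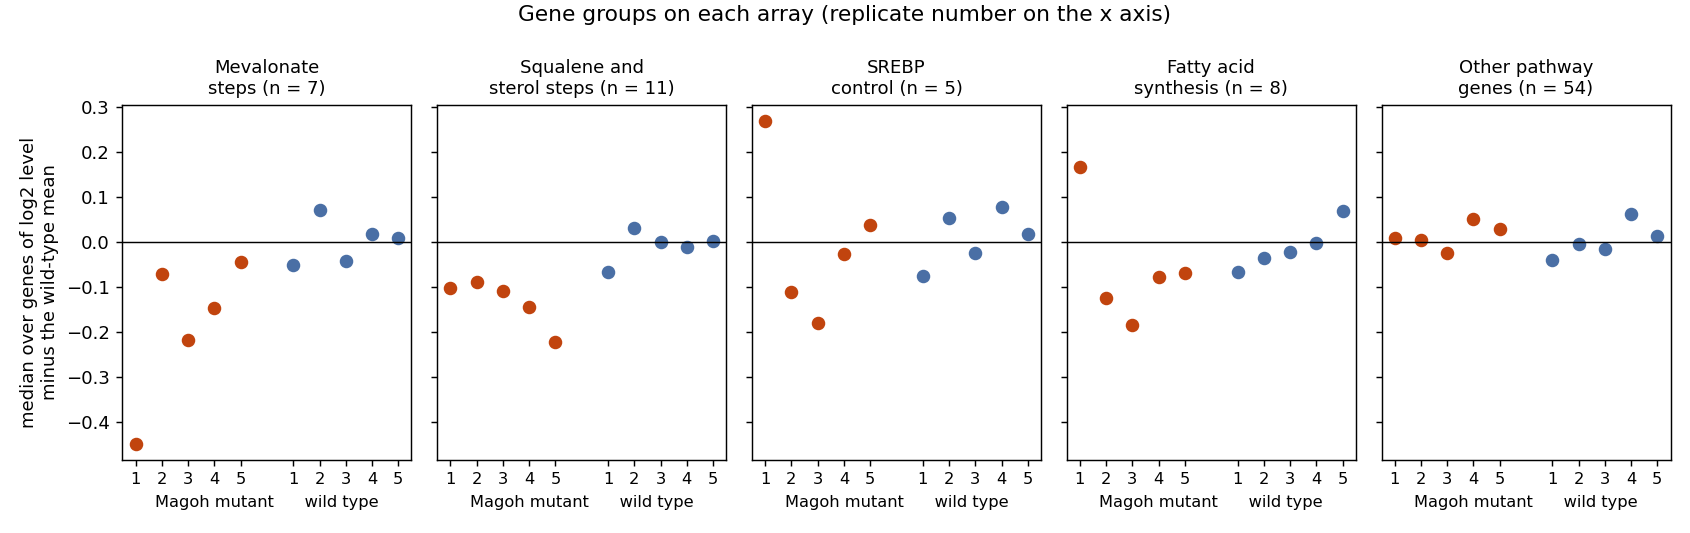
Median over the genes of a group of the log2 level minus the wild-type mean (y axis) on each array, with Magoh mutant arrays in red left of wild-type arrays in blue. Mutant array 1 is lowest for the mevalonate genes and highest for the control and fatty acid genes, while the squalene and sterol genes lie between -0.22 and -0.09 on all mutant arrays, and the other pathway genes lie near 0 in both genotypes.

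From lists of 27 further sterol genes and 29 further fatty acid genes, 54 were measured, and 0 of them passed in limma. Of these 54, 28 averaged below 8.57, where background can hide or shrink a difference, against 6 of the 34 members. At an unadjusted p under 0.05, 2 of 54 (3.7%) lay lower and 2 lay higher, close to the 4.68% and 4.57% of all genes. A negative difference was found in 20 of 54 (37.0%), against 49.0% of all genes. Their median difference was 0.04. Mbtps2, the protease that makes the second cut in SREBPs, lay higher in mutants. Its levels were 9.06, 8.94, 9.02, 8.88 and 8.88 in mutants, against 8.65, 8.70, 8.73, 8.80 and 8.81 in wild type. The groups did not overlap, and the difference was 0.22 (SE 0.06, limma adjusted p = 0.18).

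Acss2, which makes acetyl-CoA from acetate, averaged 7.40 ± 0.23 in mutants and 7.68 ± 0.09 in wild type (SD, n = 5 each), a difference of -0.29 (SE 0.09, limma adjusted p = 0.262) at levels below 8.57. Osbp, an oxysterol binding protein, differed by -0.21 (SE 0.07), also at levels below 8.57, with a limma adjusted p of 0.296. Thrsp, a regulator of fatty acid synthesis, differed by 0.18 (SE 0.08), with a limma adjusted p of 0.498. It lay near the negative-control medians of 5.34 to 5.82.

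Cell type markers moved beside these genes. Of 11 neuron markers 7 fell in limma, where 0.314% of all genes did. At an unadjusted p under 0.05, 10 lay lower, against 4.68% of all genes. The mean level of the neuron markers was 7.22 to 7.79 on mutant arrays, against 7.91 to 8.24 on wild-type arrays. Of these markers 7 averaged below 8.57. Of 10 progenitor markers 1 fell (Fabp7, a lipid carrier of radial glia, with a difference of -0.92 and a limma adjusted p of 0.000458). With an unadjusted p under 0.05, 5 lay lower. The mean level of the progenitor markers was 9.50 to 9.64 on mutant arrays, against 9.71 to 9.84 on wild-type arrays, with Fabp7 included. Their median difference from the wild-type mean overlapped between genotypes, at -0.28 to -0.03 on mutant arrays and -0.07 to 0.08 on wild-type arrays. Pax6 and Hes1 each differed by 0.00. Of the progenitor markers 2 averaged below 8.57, Fabp7 among them. Of 10 red cell markers 0 passed in limma and 9 were higher at an unadjusted p under 0.05, against 4.57% of all genes. Their mean level was 7.61 to 8.25 on mutant arrays, against 7.58 to 7.80 on wild-type arrays, and 8 of them averaged below 8.57.

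Of 12 endothelial markers 0 passed in limma and 3 were higher at that limit, where 4.68% of all genes were lower and 4.57% higher. Their mean level was 7.69 to 7.85 on mutant arrays, against 7.52 to 7.72 on wild-type arrays. The average was below 8.57 for 11 endothelial, 3 mesenchyme and 4 surface ectoderm markers. Of 10 mesenchyme markers 0 passed and 3 were lower, at 8.69 to 8.97 on mutant arrays and 8.89 to 9.07 on wild-type arrays. Of 8 surface ectoderm markers 0 passed and 1 was higher, at 7.71 to 7.99 on mutant arrays and 7.62 to 7.97 on wild-type arrays. All 10 macrophage markers averaged below 8.57, with 0 passing and 2 lower, at 6.09 to 6.23 on mutant arrays and 6.20 to 6.29 on wild-type arrays. The part of these cells in the lower sterol gene levels was not tested.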

How the data were processed

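Total RNA of single embryos' cortices was hybridised to Affymetrix GeneChip ST arrays. The authors' deposited values are log2 expression levels, 1 column per array, and the submitters' processing notes name RMA and the Affymetrix Expression Console, without versions. RMA removes any level common to an array and tends to compress fold changes. The deposited annotation columns (other text: accession, Entrez gene number, title) named 23787 of 35557 probe sets through the RefSeq gene table of GRCm38.p6, 465 of them by accession. A deposited table also held 10 columns of per-sample values whose names match no label, and these were not used. Where a gene had several probe sets (5 members), the one with the highest mean over the 10 arrays stood for it, giving 20405 genes. Dim genes were kept.

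Mutant minus wild type was fitted with limma 3.58.1 (lmFit and eBayes, R 4.3.3) using the 10 arrays and no covariate. The Benjamini-Hochberg adjustment ran over all genes. The fit was tested on simulated data. All 34 members are named whatever their values, and of the other pathway genes those with an unadjusted p under 0.05. Members and lists were chosen with earlier results of these data known, so no test was made over a list. The labels call the arrays biological replicates. No litter or hybridisation batch is given. The settings also tried were array weights, quantile normalization, a replicate block, array centring, 2 limits on dim genes, the mean over probe sets, a robust variance with an intensity trend, sex as a covariate, an adjusted p under 0.1 and leaving out each array. A fit lacking both mutant array 1 and mutant array 5 was added after seeing the data. Levels of different genes are not compared, since probe sets differ in response.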

Additional observations from a re-analysis of the deposited data

Results flagged for a closer look

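In 5 of 68 groups of 5 arrays (7.4%), 1 array lay far from the other 4 of its genotype by Dixon's test at the 95% level, where chance alone flags about 1 group in 20. Hsd17b7 was 8.34 on mutant array 1, the lowest of its genotype, and Dhcr7 was 9.56 on mutant array 1, the highest of its genotype. Ebp was 7.55 on mutant array 5, the lowest of its genotype. On wild-type array 5, Acaca was 9.83 and Fasn 10.87, both the highest of their genotype.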

How the results depend on the processing

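Over the settings that tested all 34 members, 26 to 32 had a negative difference, 10 to 15 lay lower with an unadjusted p under 0.05, and their median was -0.13 to -0.09. The number of members passing in limma was 0 in the main fit (all genes, 10 arrays, no covariate, adjusted p under 0.05). It was 1 (Insig1) at an adjusted p under 0.1, with quantile normalization, with genes above the overall median level (33 members tested), above the negative controls (28 tested) and with an intensity trend, and 2 (Insig1 and Tm7sf2) with array weights. Over all genes 117 passed, against 224 at an adjusted p under 0.1, 72 above the negative controls, where fewer genes were tested, 408 with array weights, and 502 without mutant arrays 1 and 5. Leaving out 1 array gave 64 to 185 (185 without mutant array 1, and 66, 64 and 71 without wild-type array 1, 2 or 3). The sign turned for Elovl6 (0.0049) with centred arrays. With array weights it turned for Srebf1 (-0.0523), Insig2 (0.0127), Npc1 (-0.0367), Abca1 (-0.0051), Elovl6 (0.0324) and Fads1 (-0.0507). Without mutant arrays 1 and 5 it turned for Srebf1 (-0.0988), Scap (-0.0078), Insig2 (0.0392), Npc1 (-0.0354), Abca1 (-0.0185), Elovl6 (0.0282) and Fads1 (-0.0909). With 1 array left out, differences that turned spanned -0.1471 to 0.0059 for Dhcr7, -0.0301 to 0.0179 for Elovl6, -0.0726 to 0.0915 for Fads1, -0.0931 to 0.0118 for Fads2, -0.1312 to 0.0353 for Fasn, -0.0297 to 0.044 for Npc1, -0.1169 to 0.0207 for Scd1, -0.0357 to 0.0893 for Srebf1 and -0.1057 to 0.0251 for Srebf2. The cause was not tested. The labels do not say whether the replicate numbers pair the arrays. Same-numbered arrays correlated at -0.073 to 0.36, and 2 of 5 correlated best with their own number, which cannot settle it. With the replicate block 83 genes and 0 members passed, 29 members had a negative difference, and the adjusted p of Insig1 was 0.0879. The 9 members below the negative-control level in a genotype are limited by background, and 5 arrays a genotype leave 95% intervals of about 0.12 to 0.25 on either side of a difference.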
